A study of Sus scrofa with 12 samples.

Results

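The genes described are the matrix metalloproteinases (MMPs), the ADAM, ADAMTS and ADAMTS-like (ADAMTSL) families and the tissue inhibitors of metalloproteinases (TIMPs) of pig left ventricle. Members were taken by name from the array's annotation: a symbol that begins with MMP, ADAM, ADAMTS, ADAMTSL or TIMP and goes on with a number. This gave 53 probe sets for 51 of the 12362 named genes on the array: 14 MMP, 17 ADAM, 14 ADAMTS, 3 ADAMTSL and 3 TIMP genes. Where a gene had more than 1 probe set, as ADAM7 and ADAMTS20 did, the one with the highest mean stood for it.

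The study compared RNA of paced and sham-operated pigs by microarray. All pigs were 13 months old and female. In paced pigs, conduction between atria and ventricles was blocked with an ablation catheter and a pacemaker was implanted in VDD mode, that is, with the ventricle paced after each sensed atrial beat. In all pigs, controls included, the protocol places a ventricular lead on the right ventricular septum and an atrial lead on the right atrial appendage. Tissue was taken after 6 months at the level of the papillary muscles. The 12 arrays formed 4 groups of 3: paced septum, control septum, paced free wall and control free wall. The study enrolled 12 pigs, 6 per treatment, and the labels do not tie arrays to animals, so the p-values below measure the spread between arrays. All values are log2 signals after RMA, the authors' normalization, and a difference of 1 on this scale is a 2-fold difference.

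MMPs are zinc proteases that are secreted or held at the cell surface and cut collagens, laminins and other matrix proteins, mostly after a propeptide has been removed. ADAMs are membrane proteins, many of which cut other membrane proteins free from the cell surface, a step called shedding. ADAMTS proteases are secreted and cut proteoglycans or procollagens, and ADAMTSL proteins share their ancillary domains but lack the protease. TIMPs bind to the active site of these enzymes. In the heart the balance of these proteases and inhibitors sets the turnover of the collagen network around the muscle cells. The roles given below are those of the human and mouse genes. Much of the control of these enzymes acts on the protein (activation, inhibition, shedding) and is not measured by RNA.

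Of the 51 genes, 38 passed the filter on low signal, which left out the lowest 25% of probe sets by their mean over the 12 arrays, a mean under 3. The other 13 had means of 1.54 to 2.96 and were not tested. They included the 6 MMPs of the cluster on chromosome 9 (Sscrofa11.1) that were matched to a probe set: the collagenases MMP1 and MMP13, the stromelysin MMP3, the matrilysin MMP7, the macrophage elastase MMP12, and MMP27. Single arrays of these 6 genes read 1.36 to 2.42. MMP1, MMP3, MMP12 and MMP13 lie next to one another there in the RefSeq annotation. ADAM3A, ADAM5, ADAM29 and ADAM30, genes of the testis and sperm, read 1.31 to 2.82, and ADAM28, a gene of lymphocytes and epididymis, read 2.15 to 2.85. The other genes under the filter were ADAMTS19, at 2.55 to 3.07, and ADAMTS20, which cuts versican, at 2.68 to 3.38. MMP8 and MMP20 lie in the same cluster and were not analysed here. RefSeq lists 66 pig genes with such names, of which 15 were not analysed here, among them TIMP4 and ADAMTS1.

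The inhibitors were all above the filter. TIMP3, which stays bound to the matrix and also inhibits ADAM17 and the aggrecanases ADAMTS4 and ADAMTS5, averaged 9.05 ± 0.38 in paced septum and 8.56 ± 0.34 in control septum, and 8.52 ± 0.30 in paced free wall and 8.43 ± 0.22 in control free wall (mean ± SD, n = 3 in this and the following values). TIMP2, which takes part in the activation of MMP2 by MMP14, averaged 6.63 ± 0.47 in paced septum and 6.78 ± 0.12 in control septum, and 6.65 ± 0.34 in paced free wall and 6.84 ± 0.23 in control free wall. TIMP1, which binds the proform of MMP9, averaged 5.05 ± 0.08 in paced septum and 5.09 ± 0.08 in control septum, and 4.90 ± 0.25 in paced free wall and 4.90 ± 0.22 in control free wall. The paced and control means of TIMP1 and TIMP2 lay within 1 SD of each other in the free wall, and the arrays overlapped in both regions. A signal depends on the probes as well as on the RNA, so levels are compared between arrays for 1 gene and not between genes.

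The gelatinases cut denatured collagen and basement membrane collagen. MMP2, the gelatinase of fibroblasts, averaged 6.43 ± 0.28 in paced septum and 6.64 ± 0.24 in control septum, and 6.49 ± 0.14 in paced free wall and 6.69 ± 0.08 in control free wall. MMP9, the gelatinase of neutrophils and macrophages, averaged 2.97 ± 0.18 in paced septum and 3.04 ± 0.14 in control septum, and 3.11 ± 0.06 in paced free wall and 3.02 ± 0.13 in control free wall. Its mean over all arrays, 3.04, lay just above the filter. Of the neutrophil markers on the array, S100A8, S100A9 and S100A12 were under the filter, while CXCR2, at 3.17 to 3.88, and MPO, at 2.98 to 3.83, were tested.

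The membrane-type enzymes MMP14, MMP15 and MMP16 were read on every array at 5.49 or more. MMP14, which cuts collagen at the cell surface and activates MMP2, averaged 5.85 ± 0.23 in paced septum and 5.81 ± 0.28 in control septum, and 5.73 ± 0.09 in paced free wall and 5.79 ± 0.20 in control free wall. The other secreted or membrane MMPs that were tested, MMP11, MMP19 and MMP23B, read 3.56 to 5.19 on single arrays.

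Among the sheddases, ADAM9 had means of 8.39 to 8.61 in the 4 groups. ADAM17, which frees TNF and ligands of the EGF receptor, averaged 6.25 ± 0.10 in paced septum and 5.97 ± 0.04 in control septum, and 6.19 ± 0.28 in paced free wall and 6.16 ± 0.14 in control free wall. ADAM10, which cuts Notch and the amyloid precursor, averaged 2.94 ± 0.08 in paced septum and 2.91 ± 0.08 in control septum, and 3.29 ± 0.27 in paced free wall and 2.93 ± 0.15 in control free wall. The 25th percentile of the 12 arrays lay between 2.91 and 3.13, so ADAM10 and MMP9 were read at the lower end of the signal. ADAM10 passed the filter only through paced free wall: its mean over the other 3 groups was 2.92, under the threshold of 3. It therefore had to be higher in paced free wall to be tested at all, so its values in the comparisons with that group are descriptions. Where ADAM10 is among the genes at an unadjusted p under 0.05 or without overlap, the main counts are also given without it. That choice was made after the values were seen. Counts of means above and below include ADAM10, and its direction adds nothing to those that involve paced free wall. No other tested member depended on 1 group in this way. ADAM15, ADAM19 and ADAM33 read 4.83 to 5.76 on single arrays, and ADAM8 and ADAM12 read 2.94 to 4.19. ADAM11, ADAM22 and ADAM23, which have no working catalytic site and act in adhesion, chiefly in the nervous system, read 3.11 to 6.02. Paced minus control was -0.04 (SE 0.25) in septum and 0.28 (SE 0.25) in free wall for ADAM22, and at most 0.12 in size in either region for ADAM11 and ADAM23.

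**Figure D1:**
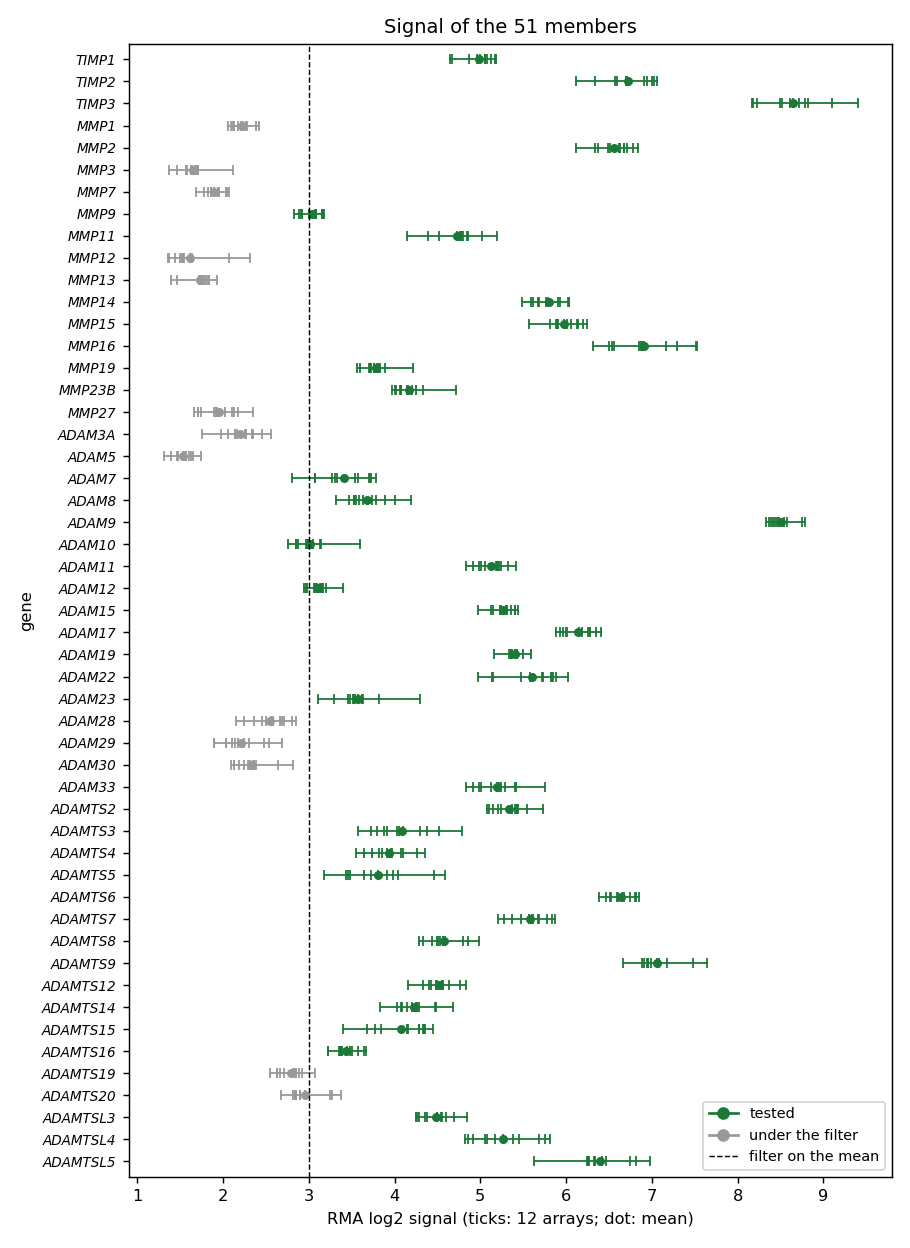
RMA log2 signal (x axis) of the 51 genes (y axis), with 1 tick per array (12 arrays) and a dot at the mean; grey genes fell under the filter at a mean of 3 (dashed line) and were not tested. The 6 measured MMPs of the chromosome 9 cluster stay at 2.42 or less on every array, and the means of MMP9, ADAM10 and ADAM12 lie just right of the line.

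The spread between arrays of 1 group was small and much the same as elsewhere on the array. The SD pooled over the 4 groups had a median of 0.21 over the 38 tested genes and of 0.20 over all 20669 tested probe sets. ADAM19 varied least, with a pooled SD of 0.10, and ADAMTS5 most, at 0.40. The arrays had median signals of 4.30 to 4.45. Paced free wall array 2 stood apart from the others: the first principal component of all tested probe sets put it at -45.3, and the rest between -19.2 and 22.3. That array was the highest or lowest of the 12 at 12 of the 38 genes, 31.6% against 36.7% of all probe sets. Control septum array 1 was the highest or lowest at 11 of the 38, 28.9% against 14.6% of all probe sets.

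Markers of heart muscle were read at high signal, MYH7 at 12.40 to 12.59. The mean of 8 fibroblast markers (DCN, LUM, COL1A1 and others), each taken against its own mean over the arrays, was -0.06 to 0.19 in paced septum and -0.65 to 0.34 in control septum, and 0.06 to 0.25 in paced free wall and -0.71 to 0.35 in control free wall. The low ends belong to array 1 of both control groups. For 9 macrophage markers the mean was -0.04 to 0.04 in paced septum and -0.19 to 0.25 in control septum, and -0.36 to 0.00 in paced free wall and 0.11 to 0.25 in control free wall. Of the fibroblast markers 7 of 8 were above 0 for pacing in each region, and of the macrophage markers 4 of 9 in the septum and 1 of 9 in the free wall (median -0.32), with 0 past the threshold. Their part in the results below was not tested. In bulk tissue, fewer cells of a type and less RNA per cell cannot be told apart.

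**Figure D2:**
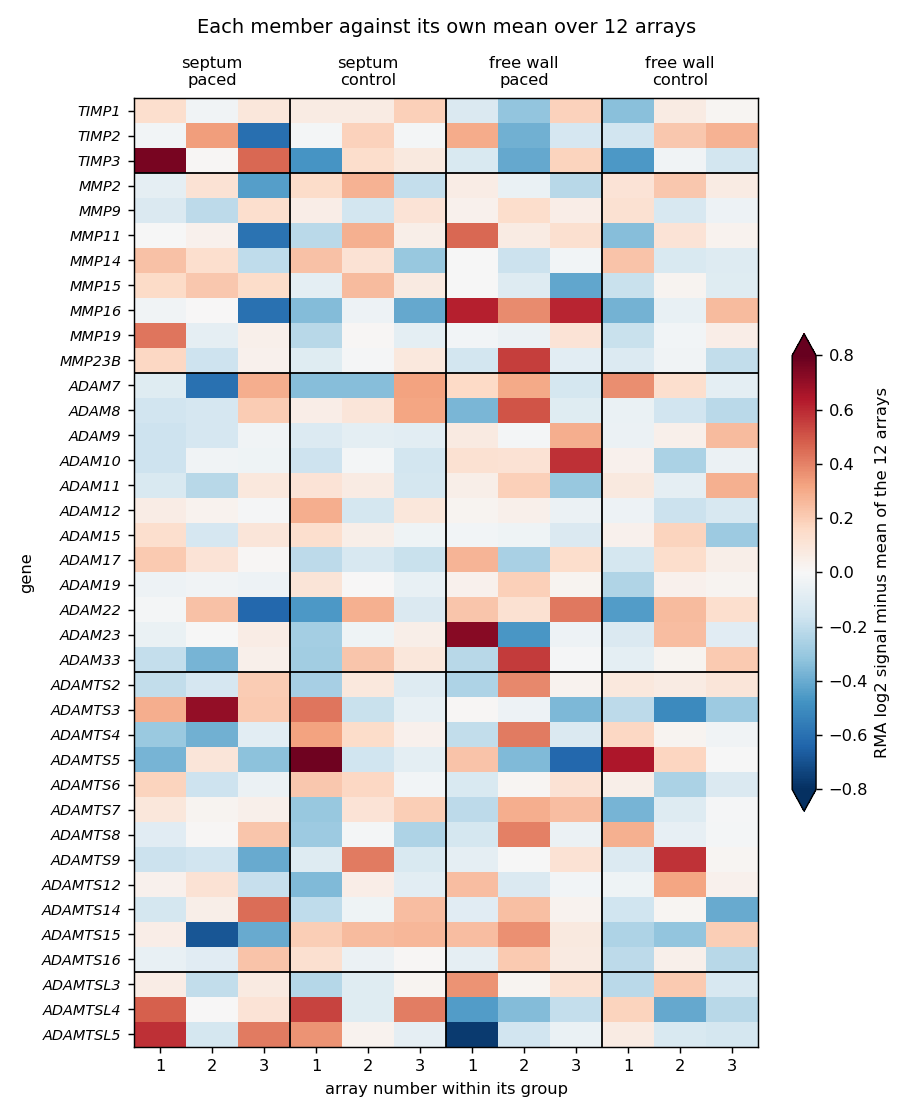
Each of the 38 tested genes (rows, by family) on each of the 12 arrays (columns, by group), as the RMA log2 signal minus the gene's own mean over the 12 arrays. MMP16 is high on all 3 paced free wall arrays, ADAMTS15 is low on paced septum arrays 2 and 3, and ADAMTS5 is high on array 1 of both control groups.

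The first comparison asks how these genes differed between paced and control pigs in the free wall, away from the ventricular lead. None of the 38 genes passed: 0 had a limma adjusted p under 0.05, where 0.00484% of all probe sets did. At an unadjusted p under 0.05 there were 2, MMP16 and ADAM10, both higher in paced free wall, which is 5.26% of the 38 against 4.56% of all probe sets (1.96% counting those higher). Paced and control arrays did not overlap at 3 genes (MMP16 and ADAM10 higher, MMP2 lower), or 7.89% against 8.16% of all probe sets. Without ADAM10 there were 1 of 37 genes at an unadjusted p under 0.05 (2.7%) and 2 without overlap (5.41%). Paced means were above control means at 24 genes, ADAM10 included, and below at 14 (49.9% and 49.3% of all probe sets). The median difference was 0.06, and the median over all probe sets was 0.

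MMP16, also called MT3-MMP, is a membrane-type protease that activates MMP2. It read 7.53, 7.29 and 7.52 in paced free wall, against 6.53, 6.85 and 7.16 in control free wall. Every paced array lay above every control array. The difference was 0.60 (SE 0.20, n = 3 per group, limma adjusted p = 0.998), or 1.52-fold, with a 95% interval of 1.13-fold to 2.04-fold before any adjustment for the number of genes. The other membrane-type enzymes, MMP14 and MMP15, differed by -0.07 (SE 0.17) and -0.09 (SE 0.13).

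ADAM10 read 3.14, 3.13 and 3.60 in paced free wall, against 3.05, 2.76 and 2.97 in control free wall. Paced array 3 was the highest of the 12, well above the other paced arrays, and the groups did not overlap, in a gene that the filter let through only because of paced free wall. The difference was 0.36 (SE 0.14, adjusted p = 0.998) and was 0.21 without paced array 3. MMP2 read 6.62, 6.51 and 6.34 in paced free wall, against 6.67, 6.78 and 6.63 in control free wall, a difference of -0.20 (SE 0.16, adjusted p = 0.998). Its groups were separate by a very narrow gap, with the highest paced array at 6.62 and the lowest control array at 6.63.

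ADAMTS15, which cuts aggrecan and versican, read 4.33, 4.45 and 4.16 in paced free wall, against 3.84, 3.77 and 4.28 in control free wall. Only control array 3 reached into the paced range, and the difference was 0.35 (SE 0.19, adjusted p = 0.998). ADAMTS5, the main aggrecanase of mouse cartilage, read 4.04, 3.46 and 3.18 in paced free wall, against 4.46, 3.98 and 3.81 in control free wall. Its difference of -0.52 (SE 0.28, adjusted p = 0.998) became -0.33 without control array 1 and -0.33 without paced array 3. Control free wall array 1, the highest for ADAMTS5 in this region, was also the lowest for the fibroblast markers (-0.71), and the part of those cells in the value was not tested.

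The remaining genes with the smallest p in the free wall all had paced means above control means. ADAMTS7, which cuts the matrix protein COMP, read 5.37, 5.87 and 5.83 in paced free wall, against 5.21, 5.48 and 5.57 in control free wall. ADAMTS16 read 3.37, 3.65 and 3.51 in paced free wall, against 3.23, 3.48 and 3.22 in control free wall. Both pairs of groups overlapped, with differences of 0.27 (SE 0.17) for ADAMTS7 and 0.20 (SE 0.13) for ADAMTS16. ADAMTSL3 read 4.84, 4.50 and 4.60 in paced free wall, against 4.26, 4.69 and 4.35 in control free wall, a difference of 0.21 (SE 0.15). MMP11, or stromelysin-3, which is activated inside the cell by furin, read 5.19, 4.80 and 4.86 in paced free wall, against 4.39, 4.84 and 4.76 in control free wall, a difference of 0.29 (SE 0.20). Each of these 4 values moved by more than 1.5 times when 1 array was left out: ADAMTS7 to 0.17 without control array 1 and 0.43 without paced array 1, ADAMTS16 to 0.13 without paced array 2, ADAMTSL3 to between 0.12 without paced array 1 and 0.34 without control array 2 (0.13 without control array 1), and MMP11 to 0.15 without control array 1 and 0.17 without paced array 1. The adjusted p of each of the 4 was 0.998.

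Without paced free wall array 2, the array that stood apart, the difference was 0.68 for MMP16, 0.44 for ADAM10, 0.28 for ADAMTS15 and -0.47 for ADAMTS5, and again 2 genes had an unadjusted p under 0.05 and 0 passed. The count of 2 became 1 without control free wall array 1, 1 without paced free wall array 3 and 4 without paced free wall array 1. By role, 7 of 8 tested sheddase-type ADAMs had paced means above control means in the free wall (median 0.09), where 49.9% of all probe sets did. ADAM10 was among the 7 and was tested only because of its paced free wall level, so its direction adds nothing to this count. Of the 5 tested ADAMTS proteases that cut proteoglycans, 2 had paced means above control means (median -0.02).

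**Figure D3:**
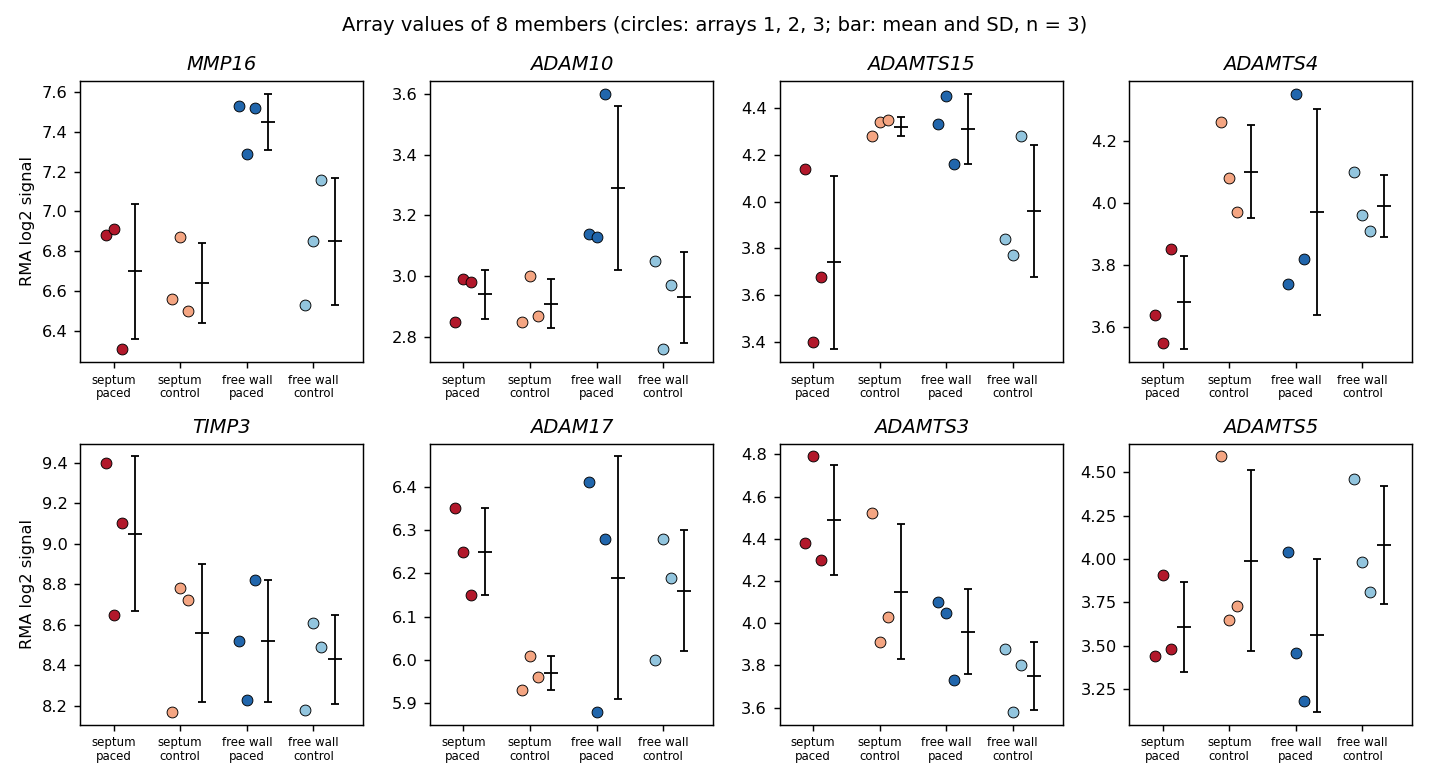
RMA log2 signal (y axis, a separate scale per panel) of 8 genes on the arrays of the 4 groups, circles for arrays 1 to 3 and a bar for the mean and SD (n = 3). The paced free wall arrays of MMP16 lie above the other groups, the paced septum arrays of ADAMTS15 and ADAMTS4 lie below those of control septum, and the paced septum arrays of ADAM17 lie above them.

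The second comparison asks the same of the septum, where the ventricular lead was placed from the right side. Again none of the 38 genes passed in limma (0, where 0.00968% of all probe sets did). ADAMTS15 and ADAMTS4, both lower in paced septum, had an unadjusted p under 0.05, or 5.26% of the 38 against 4.66% of all probe sets (2.33% counting those lower). Groups did not overlap at 4 genes (ADAM17 higher, and ADAMTS4, ADAMTS9 and ADAMTS15 lower), 10.5% both of the 38 and of all probe sets. Paced means were above control means at 17 genes and below at 21 (49.1% and 50.2% of all probe sets), with a median difference of -0.02. The count of 2 at an unadjusted p became 1 without paced septum array 1 and 4 without paced free wall array 2, which enters through the shared estimate of the spread.

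The genes with the largest differences downward are proteases of proteoglycans. ADAMTS15 read 4.14, 3.40 and 3.68 in paced septum, against 4.28, 4.34 and 4.35 in control septum. The control arrays lay close together and all above the paced ones, a difference of -0.58 (SE 0.19, adjusted p = 0.986), or 1.5-fold lower. ADAMTS4, an aggrecanase, read 3.64, 3.55 and 3.85 in paced septum, against 4.26, 4.08 and 3.97 in control septum. The difference was -0.42 (SE 0.16, adjusted p = 0.992), or 1.34-fold lower, with no overlap.

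ADAMTS9, which cuts versican and aggrecan, read 6.89, 6.91 and 6.66 in paced septum, against 6.96, 7.48 and 6.94 in control septum. The groups did not overlap, by a narrow gap, and the difference of -0.31 (SE 0.19, adjusted p = 0.992) became -0.13 without control array 2. ADAMTS5 differed by -0.38 (SE 0.28) in the same direction, from readings of 3.44, 3.91 and 3.48 in paced septum, against 4.59, 3.65 and 3.73 in control septum. Its groups overlapped, and only control array 1 lay above all paced arrays. ADAMTS8, a neighbour of ADAMTS15 on chromosome 9, differed the other way: it read 4.49, 4.59 and 4.80 in paced septum, against 4.29, 4.56 and 4.33 in control septum, a difference of 0.23 (SE 0.16, adjusted p = 0.992) that was 0.15 without paced array 3. Of these 5 genes, 4 thus had paced means below control means, where 50.2% of all probe sets did. The median of -0.38 is the value of ADAMTS5, which leans on that control array.

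TIMP3 read 9.40, 8.65 and 9.10 in paced septum, against 8.17, 8.78 and 8.72 in control septum. Paced arrays 1 and 3 were the highest for TIMP3 of all 12, while paced array 2 lay below 2 of the control arrays. The difference of 0.49 (SE 0.23, adjusted p = 0.992), or 1.41-fold, became 0.30 without control array 1 and 0.32 without paced array 1. Control septum array 1, the lowest of the 12 for TIMP3, stood at -0.65 for the fibroblast markers, and control free wall array 1, the second lowest at 8.18, stood at -0.71; their part in the difference was not tested. TIMP1 and TIMP2 differed by -0.04 (SE 0.15) and -0.15 (SE 0.23).

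ADAM17 read 6.35, 6.25 and 6.15 in paced septum, against 5.93, 6.01 and 5.96 in control septum. All paced arrays lay above all control arrays, a difference of 0.28 (SE 0.14, adjusted p = 0.992), or 1.22-fold. ADAMTS3, which removes the N-propeptide of procollagens and processes VEGFC, read 4.38, 4.79 and 4.30 in paced septum, against 4.52, 3.91 and 4.03 in control septum. Its groups overlapped, and the difference of 0.34 (SE 0.19, adjusted p = 0.992) ranged from 0.19 without paced array 2 to 0.52 without control array 1, with 0.22 without control array 2. MMP19, which cuts basement membrane proteins, read 4.21, 3.71 and 3.82 in paced septum, against 3.56, 3.79 and 3.70 in control septum. Its difference of 0.23 (SE 0.14, adjusted p = 0.992) rested on paced array 1 and was 0.08 without it.

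MMP2 and MMP14 differed by -0.21 (SE 0.16) and 0.04 (SE 0.17) in the septum, MMP9 by -0.07 (SE 0.12) and ADAM10 by 0.03 (SE 0.14). Of the 8 tested sheddase-type ADAMs, 6 had paced means below control means (median -0.04), where 50.2% of all probe sets did. All 3 procollagen N-proteinases, ADAMTS2, ADAMTS3 and ADAMTS14, had paced means above control means, at 0.05, 0.34 and 0.11.

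**Figure D4:**
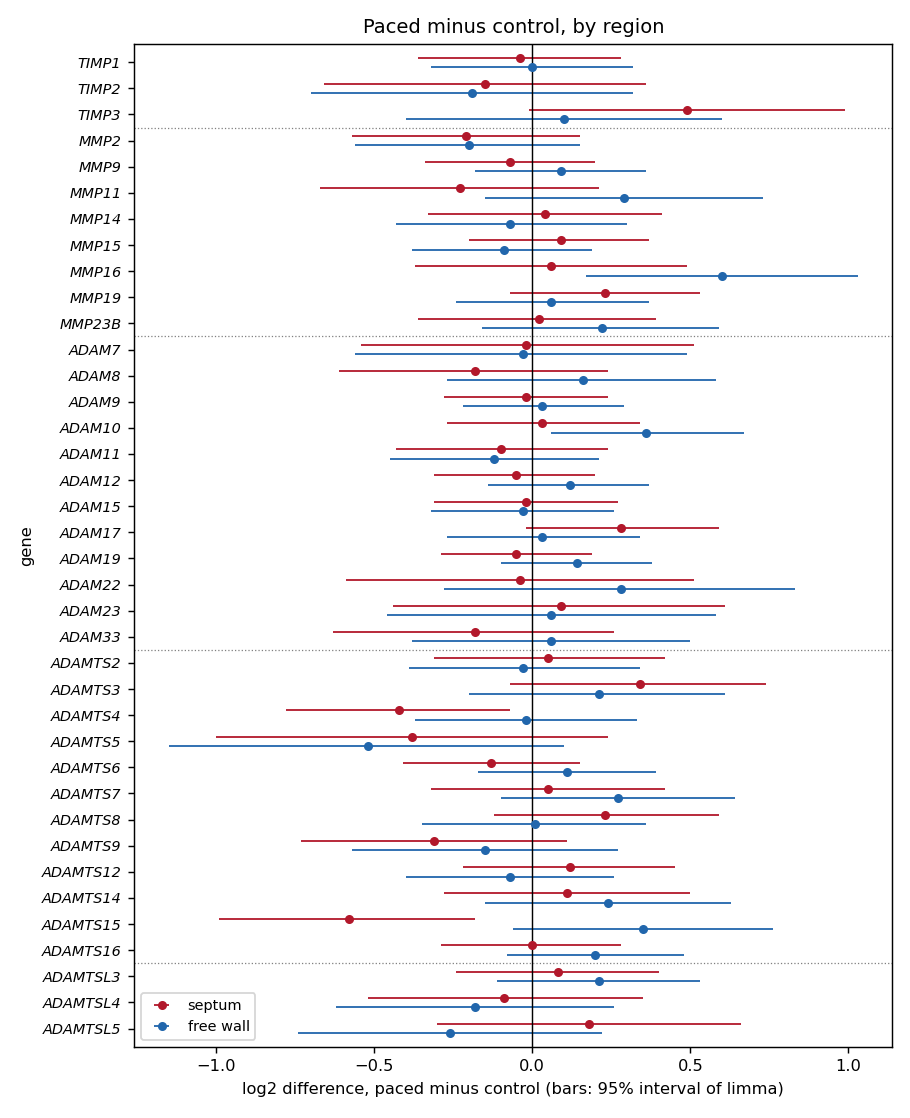
Log2 difference of paced minus control (x axis) in septum (red) and free wall (blue) for the 38 tested genes (y axis), with the 95% interval of limma, not adjusted for the number of genes. The interval lies clear of 0 for MMP16 and ADAM10 in the free wall and for ADAMTS15 and ADAMTS4 in the septum, and ADAMTS15 has opposite signs in the 2 regions.

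The third comparison is of the 2 pacing effects with each other, septum minus free wall. It passed for 0 of the 38 genes (limma, adjusted p = 0.999 for every one), and for 0% of all probe sets. ADAMTS15 alone had an unadjusted p under 0.05, which is 2.63% of the 38 against 2.75% of all probe sets. Its pacing effect was -0.58 in septum and 0.35 in free wall, a difference of -0.93 (SE 0.26) with a 95% interval of -1.51 to -0.36. The 4 group means of ADAMTS15 were 3.74 ± 0.37 in paced septum and 4.32 ± 0.04 in control septum, and 4.31 ± 0.15 in paced free wall and 3.96 ± 0.28 in control free wall. Without paced free wall array 2 the difference was -0.86, and over all arrays left out in turn it ranged from -1.13 to -0.76. The count of 1 gene at an unadjusted p became 2 without control free wall array 3, 2 without paced free wall array 1 and 3 without paced septum array 2.

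The next smallest p-values were those of MMP16, with a difference of effects of -0.54 (SE 0.28), and MMP11, with -0.51 (SE 0.28). Each had a pacing effect in the free wall above that in the septum. Leaving out paced septum array 3 moved them to -0.35 for MMP16 and -0.31 for MMP11. ADAMTS4 had -0.40 (SE 0.23), or -0.21 without paced free wall array 2. ADAM10 had -0.33 (SE 0.20), or -0.17 without paced free wall array 3. ADAMTSL5 had 0.44 (SE 0.31), or 0.22 without paced free wall array 1 and 0.29 without paced septum array 1. ADAMTS6, needed for heart development in the mouse, had -0.24 (SE 0.18), and ADAM17 had 0.25 (SE 0.20), or 0.10 without paced free wall array 2.

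In sign alone, 12 genes had paced means above control means in both regions, 9 below in both, 5 above in the septum and below in the free wall, and 12 the reverse. ADAM10 is among those above in both. The shares of all probe sets with these patterns were not computed, so the counts are descriptions. The effects in the 2 regions come from different arrays, and where they differ in sign their difference did not pass. TIMP1 had effects of -0.04 in septum and 0.00 in free wall, TIMP2 of -0.15 and -0.19, and MMP2 of -0.21 and -0.20, in the same order of regions.

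The fourth comparison is between the septum and the free wall of paced pigs. It held more small p-values among these genes than the others, but 0 of 38 passed in limma, as 0% of all probe sets did. The fit took the arrays of both regions as unpaired, although the tissue is described as paired, because the labels do not name the pairs. An unadjusted p under 0.05 was found at 8 genes, 5 higher and 3 lower in septum, which is 21.1% of the 38 against 6.73% of all probe sets (4.3% higher and 2.43% lower). Groups did not overlap at 10 genes, 26.3% against 9.91% of all probe sets. Of these, 3 were higher in septum (ADAMTS3, ADAMTSL4 and MMP15), where 6.44% of all probe sets were. The other 7 were lower in septum (ADAM9, ADAM10, ADAM19, ADAMTS9, ADAMTS15, MMP11 and MMP16), where 3.47% of all probe sets were. Without ADAM10 there were 7 of 37 genes at an unadjusted p under 0.05 (18.9%) and 9 without overlap (24.3%), 6 of them lower in septum (16.2%). Septal means lay above free wall means at 13 genes and below at 25, ADAM10 included (51.4% and 47.8% of all probe sets). The median difference was -0.05, and 0.01 over all probe sets.

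Cell type markers were counted between the same arrays, with 0 past the threshold, where 51.4% of all probe sets lay above 0. Macrophage markers were above 0 at 8 of 9 (median 0.22), with list means of -0.04 to 0.04 in paced septum and -0.36 to 0.00 in paced free wall. Vascular endothelial markers were above 0 at 5 of 5 (median 0.18), with -0.03 to 0.28 in paced septum and -0.27 to 0.16 in paced free wall. Atrial muscle markers were above 0 at 5 of 5 (median 0.39), with 0.12 to 0.20 in paced septum and -0.56 to 0.27 in paced free wall. Fibroblast markers were above 0 at 3 of 8 (median -0.13), heart muscle markers at 3 of 6 (median 0.01) and smooth muscle and pericyte markers at 5 of 7 (median 0.06). Endocardial and lymphatic markers were above 0 at 1 of 5 (median -0.09) and skeletal muscle markers at 1 of 3 (median -0.09). The part of any of these cells in the differences was not tested.

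MMP16 had the smallest p of any member in any comparison. It read 6.88, 6.91 and 6.31 in paced septum, against 7.53, 7.29 and 7.52 in paced free wall. All septal arrays lay below all free wall arrays, a difference of -0.75 (SE 0.20, adjusted p = 0.456), or 1.68-fold lower. Without paced free wall array 2 it was -0.82 (adjusted p = 0.326). ADAMTS15 read 4.14, 3.40 and 3.68 in paced septum, against 4.33, 4.45 and 4.16 in paced free wall, a difference of -0.57 (SE 0.19, adjusted p = 0.588). The highest septal array of ADAMTS15 lay just below the lowest free wall array. Without paced free wall array 2 the difference was -0.50. ADAM10 read 2.85, 2.99 and 2.98 in paced septum, against 3.14, 3.13 and 3.60 in paced free wall, a difference of -0.35 (SE 0.14, adjusted p = 0.694) that was -0.19 without paced free wall array 3 and -0.43 without array 2. ADAM10 was tested only because of its paced free wall level.

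Those higher in septum included ADAMTSL4 and ADAMTSL5, whose products bind fibrillin, the scaffold of elastic microfibrils. ADAMTSL4 read 5.75, 5.27 and 5.38 in paced septum, against 4.82, 4.92 and 5.08 in paced free wall. ADAMTSL5 read 6.98, 6.25 and 6.81 in paced septum, against 5.63, 6.24 and 6.34 in paced free wall. The arrays of ADAMTSL4 did not overlap, with a difference of 0.53 (SE 0.20, adjusted p = 0.672), while those of ADAMTSL5 did, with a difference of 0.61 (SE 0.22, adjusted p = 0.643) that was 0.39 without paced free wall array 1. ADAMTS3 read 4.38, 4.79 and 4.30 in paced septum, against 4.10, 4.05 and 3.73 in paced free wall, a difference of 0.53 (SE 0.19, adjusted p = 0.627) with no overlap.

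MMP15, or MT2-MMP, read 6.14, 6.20 and 6.13 in paced septum, against 5.98, 5.88 and 5.57 in paced free wall. The paced septal arrays lay close together and above all paced free wall arrays, and the difference of 0.35 (SE 0.13, adjusted p = 0.670) was 0.23 without paced free wall array 3. TIMP3 read 9.40, 8.65 and 9.10 in paced septum, against 8.52, 8.23 and 8.82 in paced free wall. Its groups overlapped, and the difference of 0.53 (SE 0.23, adjusted p = 0.729) was 0.35 without paced septum array 1 and 0.38 without paced free wall array 2. Without paced free wall array 2 there were again 8 genes with an unadjusted p under 0.05, of which 7 were shared: TIMP3 left (unadjusted p = 0.149, limma adjusted p = 0.613) and ADAM9 entered, at -0.29. The share of all probe sets then was 10.3%, and the member median was 0. The count was 4 without paced septum array 1 and 5 without paced free wall array 3.

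The fifth comparison is between the same regions of control pigs. In limma 0 of the 38 genes passed (0% of all probe sets), and 0 had an unadjusted p under 0.05, where 3.67% of all probe sets did. Groups did not overlap at 3 genes (ADAM8 and ADAMTS3 higher and ADAM9 lower in septum), 7.89% against 13.1% of all probe sets. Same-numbered septum and free wall arrays of control pigs deviated together from their group means, and with the number as a block ADAMTS3 and ADAMTSL4 came under an unadjusted p of 0.05 (0.0221 and 0.0248, both with a limma adjusted p of 0.988), or 5.26% of the 38 against 3.75% of all probe sets in the blocked fit. Without the block, the count of 0 became 3 without control septum array 2 and 2 without paced septum array 1.

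ADAMTSL4 read 5.81, 5.17 and 5.68 in control septum, against 5.45, 4.86 and 5.05 in control free wall, a difference of 0.43 (SE 0.20, adjusted p = 0.997). ADAMTS3 read 4.52, 3.91 and 4.03 in control septum, against 3.88, 3.58 and 3.80 in control free wall. The arrays of ADAMTS3 did not overlap, a difference of 0.40 (SE 0.19, adjusted p = 0.997) that was 0.22 without septum array 1. ADAMTSL4 and ADAMTS3 were thus higher in septum by 0.53 each in paced pigs and by 0.43 and 0.40 in control pigs; the difference of these region effects is that of the pacing effects and did not pass. ADAM9 was 0.23 lower in septum in paced pigs and 0.17 lower in control pigs, without overlap in either.

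Septum and free wall of control pigs differed the other way from paced pigs for ADAMTS15, which read 4.28, 4.34 and 4.35 in control septum, against 3.84, 3.77 and 4.28 in control free wall, a difference of 0.36 (SE 0.19, adjusted p = 0.997). Control free wall array 3 equalled the lowest septal array. ADAM8, a sheddase of leukocytes, read 3.74, 3.78 and 4.0 in control septum, against 3.63, 3.53 and 3.47 in control free wall, a difference of 0.30 (SE 0.19). ADAM12, which sheds HB-EGF, read 3.40, 2.97 and 3.20 in control septum, against 3.07, 2.94 and 2.98 in control free wall, a difference of 0.19 (SE 0.12) that was 0.09 without septum array 1 and 0.30 without septum array 2. The ranges of ADAM12 overlapped and those of ADAM8 did not.

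Among the other ADAMTS genes, ADAMTS6 read 6.85, 6.80 and 6.61 in control septum, against 6.68, 6.38 and 6.52 in control free wall, a difference of 0.23 (SE 0.13), or 0.15 without free wall array 2. ADAMTS8 read 4.29, 4.56 and 4.33 in control septum, against 4.86, 4.51 and 4.56 in control free wall, a difference of -0.25 (SE 0.16), or -0.14 without free wall array 1. ADAMTS12, which cuts COMP as ADAMTS7 does, read 4.16, 4.57 and 4.43 in control septum, against 4.48, 4.83 and 4.55 in control free wall, a difference of -0.23 (SE 0.15). It was -0.12 without septum array 1 and -0.13 without free wall array 2. All 5 of these genes after ADAMTS15 had a limma adjusted p of 0.997 and overlapped between regions, ADAM8 excepted.

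**Figure D5:**
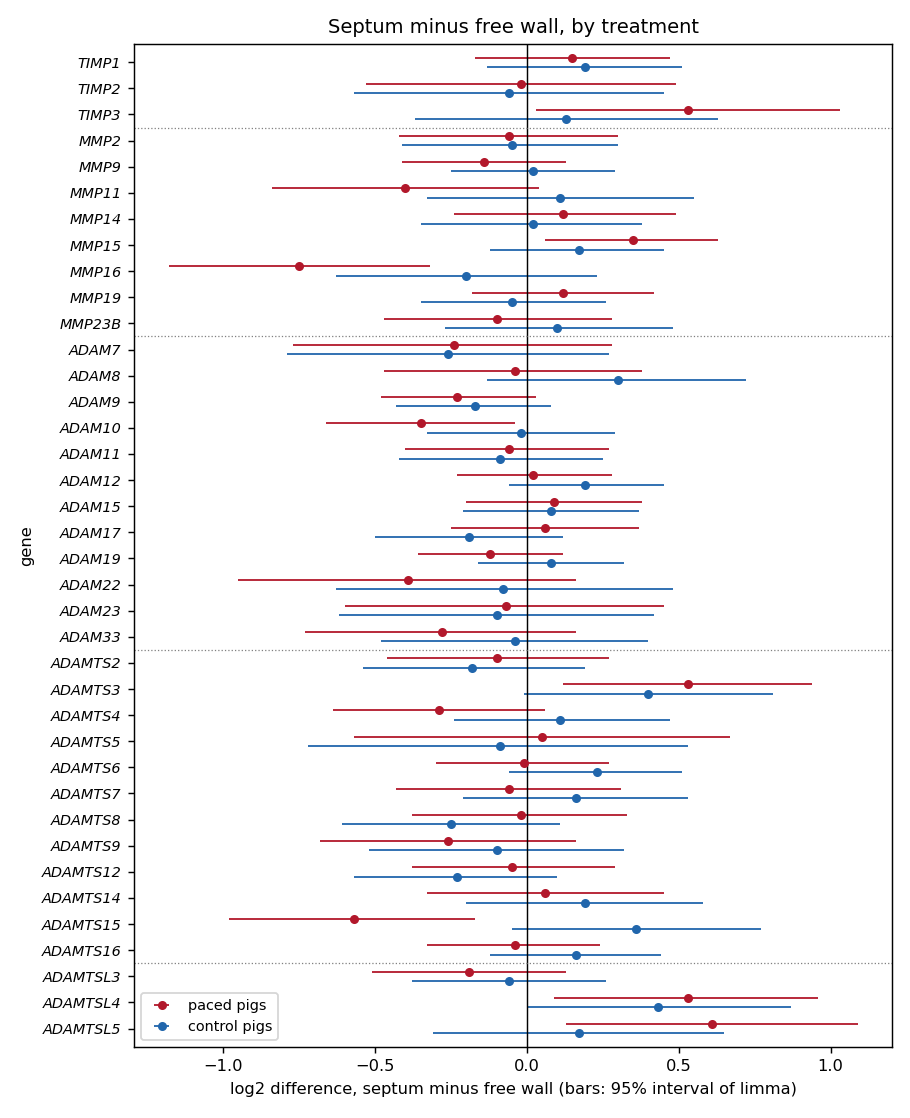
Log2 difference of septum minus free wall (x axis) in paced pigs (red) and control pigs (blue) for the 38 tested genes (y axis), with the 95% interval of limma, not adjusted for the number of genes. In paced pigs the interval lies clear of 0 for 8 genes, MMP16, ADAMTS15 and ADAM10 below and ADAMTS3, ADAMTSL4, ADAMTSL5, MMP15 and TIMP3 above, and in control pigs for 0.

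The sixth comparison asked what pacing did with both regions combined, with each septum array averaged with the free wall array that has its treatment and number, which left 3 averages per treatment. This comparison shares its arrays with the first and second comparisons. The labels do not say that same-numbered arrays share a pig, and its SE, p-values and counts without overlap depend on that numbering. In limma 0 of the 38 genes passed (0.00484% of all probe sets did), and 1, MMP16, had an unadjusted p under 0.05, which is 2.63% against 5.55% of all probe sets. Averages did not overlap at 4 genes (ADAM10 and MMP16 higher, ADAM11 and ADAMTS5 lower), 10.5% against 10.4% of all probe sets, or at 3 of 37 without ADAM10 (8.11%). MMP16 was higher by 0.33 (SE 0.12, adjusted p = 0.867), with effects of 0.06 in septum and 0.60 in free wall. ADAMTS5 was lower by 0.45 on the log2 scale (difference -0.45, SE 0.21, adjusted p = 0.907), with both regions below 0, and -0.21 without the control average with the number 1. ADAM10 had 0.20 (SE 0.10, adjusted p = 0.926), or 0.11 without paced average 3, and ADAMTS4 had -0.22 (SE 0.11, adjusted p = 0.914).

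The other differences among the 8 smallest p-values with the regions averaged were 0.27 (SE 0.15) for ADAMTS3, 0.29 (SE 0.19) for TIMP3, 0.18 (SE 0.11) for ADAMTS14 and -0.21 (SE 0.13) for MMP2, with adjusted p-values of 0.944, 0.968, 0.971 and 0.968. MMP2 read 6.49, 6.68 and 6.12 in paced septum, against 6.71, 6.84 and 6.37 in control septum. ADAMTS14 read 4.09, 4.28 and 4.68 in paced septum, against 4.03, 4.20 and 4.48 in control septum, and 4.14, 4.47 and 4.26 in paced free wall, against 4.07, 4.25 and 3.83 in control free wall. All 4 values moved by more than 1.5 times without 1 average. ADAMTS3 had 0.17 without control average 2 and 0.17 without paced average 2, and TIMP3 had 0.14 without control average 1 and 0.47 without paced average 2. ADAMTS14 had 0.10 without paced average 3 and 0.28 without paced average 1, and MMP2 had -0.13 without control average 2 and -0.09 without paced average 3.

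How large a difference these arrays leave room for can be read from the 95% intervals of single genes, which are not adjusted for the number of genes. In the free wall 36 of the 38 intervals for pacing lay within 2-fold in either direction, in the septum 37 and with the regions averaged 38. Between regions it was 35 in paced pigs and 38 in control pigs, and for the difference of the pacing effects 31. For MMP2 the interval for pacing ran from -0.57 to 0.15 in septum and from -0.56 to 0.15 in free wall, and for TIMP1 from -0.36 to 0.28 in septum and from -0.32 to 0.32 in free wall.

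Genes that act with these proteases were counted from 6 lists of 104 genes, of which 77 were matched and 69 tested. In each of the 6 comparisons 0 of the 69 passed in limma. For paced against control, 2 had an unadjusted p under 0.05 in the septum (2.9%, against 4.66% of all probe sets) and 3 in the free wall (4.35% against 4.56%). There was 1 for the effects set against each other (1.45% against 2.75%). Between regions there were 4 in paced pigs (5.8% against 6.73%) and 2 in control pigs (2.9% against 3.67%), and with the regions averaged there were 2 (2.9% against 5.55%).

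Of 9 tested activators, genes of the plasminogen system and the proprotein convertases, 6 were above 0 for pacing in the septum (median 0.06) and 6 in the free wall (median 0.07). PLAT, the tissue plasminogen activator, had 0.40 (SE 0.26) in septum and 0.42 (SE 0.26) in free wall, and FURIN, which removes the propeptide of many ADAMs and membrane-type MMPs, had 0.00 (SE 0.11) in septum and 0.11 (SE 0.11) in free wall. Of 6 other inhibitors and clearance genes, 3 were above 0 in each region. CST3, the cysteine protease inhibitor cystatin C, had -0.24 (SE 0.13) in septum and -0.30 (SE 0.13, unadjusted p = 0.0462, limma adjusted p = 0.998) in free wall, and RECK, a membrane inhibitor of MMPs, had 0.16 (SE 0.23) in septum and 0.22 (SE 0.23) in free wall.

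Of 14 other proteases of the matrix, 6 were above 0 for pacing in the septum and 9 in the free wall. FAP, a membrane protease of activated fibroblasts, had 0.62 (SE 0.31, adjusted p = 0.992) in septum and 0.45 (SE 0.31, adjusted p = 0.998) in free wall, and the cathepsin CTSL had -0.24 (SE 0.22) in septum and -0.38 (SE 0.22) in free wall. Of 11 partners and substrates of the sheddases, 4 were above 0 in the septum and 5 in the free wall. CXCL16, a membrane chemokine shed by ADAM10, had 0.25 (SE 0.12, adjusted p = 0.992) in septum and -0.07 (SE 0.12) in free wall, and TGFA, shed by ADAM17, had -0.19 (SE 0.15) in septum and 0.19 (SE 0.15) in free wall.

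Of 16 matrix substrates, 11 were above 0 for pacing in the septum (median 0.10) and 12 in the free wall (median 0.12). BCAN, a proteoglycan cut by ADAMTS4 and ADAMTS5, had -0.16 (SE 0.17, adjusted p = 0.992) in septum and 0.44 (SE 0.17, adjusted p = 0.998) in free wall. The difference of these effects was -0.60 (SE 0.24, unadjusted p = 0.029, limma adjusted p = 0.999). VWF, von Willebrand factor, which is cut by ADAMTS13, had 0.32 (SE 0.15, adjusted p = 0.992) in septum and 0.16 (SE 0.15) in free wall. The mean of the list against its own mean over the arrays was 0.01 to 0.09 in paced septum and -0.24 to 0.19 in control septum, and -0.02 to 0.11 in paced free wall and -0.36 to 0.14 in control free wall, with array 1 lowest in both control groups. Of 13 cytokines and inducing factors, 6 were above 0 for pacing in the septum and 8 in the free wall. AGT, the precursor of angiotensin, had -0.65 (SE 0.24, adjusted p = 0.992) in septum and -0.74 (SE 0.24, adjusted p = 0.998) in free wall, and between regions of paced pigs JUN, a subunit of the AP-1 factor that drives many MMP genes, was 0.41 higher in septum (SE 0.15, adjusted p = 0.648).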

How the data were processed

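The authors deposited 1 table of log2 signals for 27558 probe sets and 12 arrays, which Affymetrix Expression Console 1.4 produced by RMA, per the submitters' processing notes. RMA gives each probe set 1 value after background correction and quantile normalization, which draws the distributions of the arrays together. The genome build of the array annotation is not given in the sources used here, so no coordinates are printed. Of the probe sets, 13323 list 1 gene symbol, 357 list several and 13878 list none. The 1 probe set of a member that lists several symbols was left out. RefSeq gene tables of Sscrofa11.1 gave synonyms and neighbouring genes.

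From these values, the lowest 25% of probe sets by mean were left out, and group means over all 12 arrays were fitted to the 20669 others (limma 3.58.1, R 4.3.3). Tests were two-sided, and p-values were adjusted by Benjamini-Hochberg over all 20669, with a call at 0.05. The members and the gene lists were chosen with earlier results of these data known. Every member is named by family; full values are given for the 8 members with the smallest p in each comparison, group means for a preset set of well-known members, and up to 4 genes per list. Lists were counted and not tested.

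The labels describe the septum and free wall tissue as paired. They also give same-numbered septum and free wall arrays, without saying that these arrays share a pig. Their deviations from the group means correlated at 0.32, 0.25 and 0.24 in control pigs and at 0.09, -0.17 and -0.18 in paced pigs. Same-numbered arrays of paced and control pigs, which cannot share a pig, correlated at -0.20, -0.14 and 0.04 in free wall and at 0.01, 0.09 and 0.22 in septum. These values do not show which arrays share a pig. For the regions of control pigs, where the correlations were highest, the fit blocked on the number is given as well. Elsewhere the comparisons between regions and the difference of the pacing effects treat septum and free wall arrays as unpaired. Their p-values do not allow for same-numbered arrays that may share a pig. Counts with the block are given below with the other alternatives. The code was tested on simulated data. Arrays have no read depth, and 3 per group limit the precision. Alternatives were other filters, scalings, array weights, a trended prior, the mean of probe sets, the block, other samples in the fit and each array left out. Figures were drawn with matplotlib 3.10.9.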

Additional observations from a re-analysis of the deposited data

Results flagged for a closer look

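For 4 genes every paced free wall array lay above the control mean of its region and every paced septum array lay below the control mean of its own. The rule was applied to the tested members only. The share of all probe sets that meet it is not known, so the count is a description. The pacing effect in septum minus that in free wall was -0.93 for ADAMTS15, -0.51 for MMP11, -0.19 for ADAM19 and -0.17 for ADAM12. The limma test of this difference gave an adjusted p of 0.999 for each of the 4, and of them ADAMTS15 alone had an unadjusted p under 0.05 (0.00423). Some margins in the septum were very small. MMP11 read 4.77 on paced septum array 2, where the control septum mean was also 4.77 after rounding. The highest paced septum array of ADAM12 read 3.17 against a control mean of 3.19, and that of ADAM19 read 5.37 against 5.41. Groups of 3 arrays are too small for a test of single outlying arrays.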

How the results depend on the processing

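The count of members that passed was 0 in all 6 comparisons and in all 119 alternatives run. All 929 recomputed differences of named members kept their direction, but many of them could not change. Another filter, the trended prior, a fit of only both groups or an array left out of another group leaves a difference as it was. Named members were also chosen for the smallest p, so the 929 are a description. The number of members at an unadjusted p under 0.05 moved past 1.5 times its value in 37 of 119 alternatives. With the replicate number as a replicate block, the difference of the pacing effects had 2 such members in place of 1, the regions of control pigs 2 in place of 0, and the regions of paced pigs 9 in place of 8; MMP16 between regions of paced pigs then had an adjusted p of 0.558, and the block changed no call. Leaving out the lowest 50% of probe sets tested 24 members, with 1 at an unadjusted p under 0.05 for pacing in the free wall, 0 in the septum and 5 between regions of paced pigs. In a fit of only both groups compared there were 5 between regions of paced pigs, and with array weights 4 for pacing in the septum and 4 between regions of control pigs. Except where given above, the share of all probe sets was not computed in the alternatives, those with an array left out included. Their counts were not repeated without ADAM10, so they are descriptions. With each array centred on its median, the member median of the difference of the pacing effects was -0.01 in place of -0.05. With the lowest 50% left out the member median between regions of control pigs was -0.05 in place of 0.02. With the regions averaged, 5 of the 6 averages left out in turn gave 2 members in place of 1. ADAM10, ADAM12 and MMP9 have signals near the filter, where RMA values of RNA and background lie close together.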

Other observations

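ADAM7 and ADAMTS20 had a second probe set each, and in both genes it was dimmer than the first, with means of 1.75 for ADAM7 and 2.36 for ADAMTS20 over the 12 arrays. The second probe set of ADAM7, a gene of the epididymis, read 1.55 to 1.97 on single arrays, all under the filter, while the first read 2.81 to 3.78 and was tested. Below the filter, MMP12, the macrophage elastase, read 1.37, 1.55 and 1.50 in paced free wall, against 2.31, 2.07 and 1.54 in control free wall, and 1.54, 1.52 and 1.44 in paced septum, against 1.64, 1.36 and 1.62 in control septum. Control free wall arrays 1 and 2 were the highest of the 12 for MMP12, and no test was made at this signal. ADAMTS8 and ADAMTS15 are neighbours on chromosome 9, and their pacing differences in septum were 0.23 and -0.58.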
